A study of Mus musculus with 7 samples.

Results

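Epithelial-mesenchymal transition (EMT) is the passage of cells from a sheet held together by cadherin junctions to a loose and migratory state. Its core genes were followed here in mouse embryonic stem cells (ESCs) that had lost the distal super-enhancer (SE) of Sox2, a transcription factor of the pluripotency network. The set was given by name and not by a rule on its values, but it was chosen with earlier results of these data known. It held the epithelial adhesion genes Cdh1 and Epcam, the mesenchymal cadherin Cdh2, the filament gene Vim, and the transcription factors Snai1, Snai2, Zeb1, Zeb2, Twist1 and Twist2. All 10 were found in the GENCODE M1 annotation, among 31498 genes that could be measured.

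E-cadherin, the product of Cdh1, binds its like on the neighbouring cell and holds ESC colonies together. During gastrulation, cells that enter the primitive streak lose it and take up N-cadherin, the product of Cdh2, in an EMT. Factors of the Snai, Zeb and Twist families drive this change, and those of the Snai and Zeb families bind E-box sequences of the form CAGGTG and repress epithelial genes.

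PolyA+ RNA was sequenced from 4 clones of F123, an ESC line from a cross of Mus musculus castaneus (CAST) with a 129 strain. The wild type (WT) clone kept the SE on both alleles, the CAST+/129- clone lacked it on the 129 allele, the CAST-/129+ clone on the CAST allele, and the CAST-/129- clone on both. H3K4me3, a mark of promoters, was profiled by ChIP-seq in F123 cells, and H3K27ac, a mark of active promoters and enhancers, in F123 cells and in J1 cells, another mouse ESC line. No ChIP-seq of a deletion clone was used here. Each genotype was 1 clone and 1 library, so that an effect of genotype and a difference between clones cannot be told apart. The transfected cells had recovered on a feeder layer of mouse embryonic fibroblasts, and cells were passaged without feeders on gelatin before they were harvested. All deletion clones were compared with the same WT library, so the comparisons are not independent of each other.

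The RNA libraries held from 5847451 distinct alignments on genes in CAST-/129- to 24891864 in WT. Levels are FPKM, counts of distinct alignments scaled to exonic length and to the number of alignments on genes. The intervals in parentheses are exact 95% intervals of the counts, cover counting error only, and are no measure of the spread between clones. Following the study's rule, a gene was said to have risen or fallen when FPKM plus 4 changed at least 3-fold. A gene at a few FPKM thus had to change by more to rise, and could not fall even with no RNA left. Sox2, the target of the deletion, was at 174.4 FPKM in WT, 81.8 in CAST+/129-, 72.8 in CAST-/129+ and 7.38 in CAST-/129-. The 9 ESC markers measured were between 53.7 and 460.5 FPKM in WT, and 5 of them fell in CAST-/129-.

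The 250 bases before the transcription start are shown for Epcam, which rose in every deletion clone, for Vim, which rose in CAST-/129-, and for Twist2, which was nearly silent in WT. They are RefSeq sequences of the build GRCm38.p6, written from 5′ to 3′ on the strand of the gene, and capitals mark CAGGTG or its reverse complement CACCTG. Epcam lies at chr17:87635729-87635978, Vim at chr2:13574061-13574310 and Twist2 at chr1:91801211-91801460, all on the plus strand.
Epcam: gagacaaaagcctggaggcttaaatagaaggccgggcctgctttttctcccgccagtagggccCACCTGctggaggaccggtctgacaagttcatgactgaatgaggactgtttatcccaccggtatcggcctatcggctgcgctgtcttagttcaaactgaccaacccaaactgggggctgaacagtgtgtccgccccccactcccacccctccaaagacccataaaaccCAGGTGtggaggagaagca
Vim: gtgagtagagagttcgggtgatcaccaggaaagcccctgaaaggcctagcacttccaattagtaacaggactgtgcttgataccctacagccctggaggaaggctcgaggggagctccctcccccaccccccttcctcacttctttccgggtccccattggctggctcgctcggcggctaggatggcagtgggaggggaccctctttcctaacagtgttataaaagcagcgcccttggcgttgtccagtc
Twist2: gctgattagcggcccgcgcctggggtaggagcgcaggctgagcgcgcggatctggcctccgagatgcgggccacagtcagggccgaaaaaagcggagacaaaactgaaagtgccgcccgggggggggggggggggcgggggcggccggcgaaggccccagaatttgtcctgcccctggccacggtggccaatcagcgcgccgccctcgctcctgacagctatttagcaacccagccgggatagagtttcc

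The Epcam window held the motif 2 times, with first bases 187 and 19 bases before the start, and the windows of Vim and Twist2 held none. Of the 10 genes, 6 had a promoter in this table, namely Epcam, Vim, Snai1, Zeb2, Twist1 and Twist2, with 9 starts between them. Snai1 was the other gene with the motif, 126 bases before its start. Of all 32851 promoters in the table, 17.2% held it. CpG dinucleotides were at 0.788 of the number expected from base composition in the Twist2 window, 0.405 in that of Epcam and 0.376 in that of Vim, and the median over all promoters was 0.373. The windows of Epcam and Vim were thus near the median, while those of Twist2, Twist1 at 0.740 and Snai1 at 0.882 were richer in CpG.

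In WT cells the epithelial cadherin was the most abundant of the 10 transcripts per exonic base, followed closely by vimentin. Cdh1 was at 108.7 FPKM (106.8–110.7), Vim at 83.8 (81.4–86.1) and Epcam at 18.3 (17.1–19.5). Among the transcription factors, Snai1 was at 10.8 FPKM (9.81–11.9), Zeb1 at 6.54 (6.22–6.87) and Twist1 at 2.88 (2.38–3.46). The other 4 genes were low, with Snai2 at 1.44 FPKM (1.13–1.82), Cdh2 at 1.03 (0.895–1.18), Zeb2 at 0.282 (0.232–0.341) and Twist2 at 0.0302 from 1 alignment. Each step in this order was larger than the counting intervals except that from Snai2 to Cdh2, whose intervals overlap. Per coding base the order differed, since Zeb1 was then at 21.1 FPKM and Snai1 at 19.7, and among the lower genes Cdh2 was at 3.64, Snai2 at 3.24 and Twist1 at 3.20. Alignments covered 46.3% of the annotated exonic bases of Cdh2 and 22.7% of those of Zeb2 in WT, compared with 96.5% for Cdh1, so that levels over all exons are lower for the former.

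**Figure D1:**
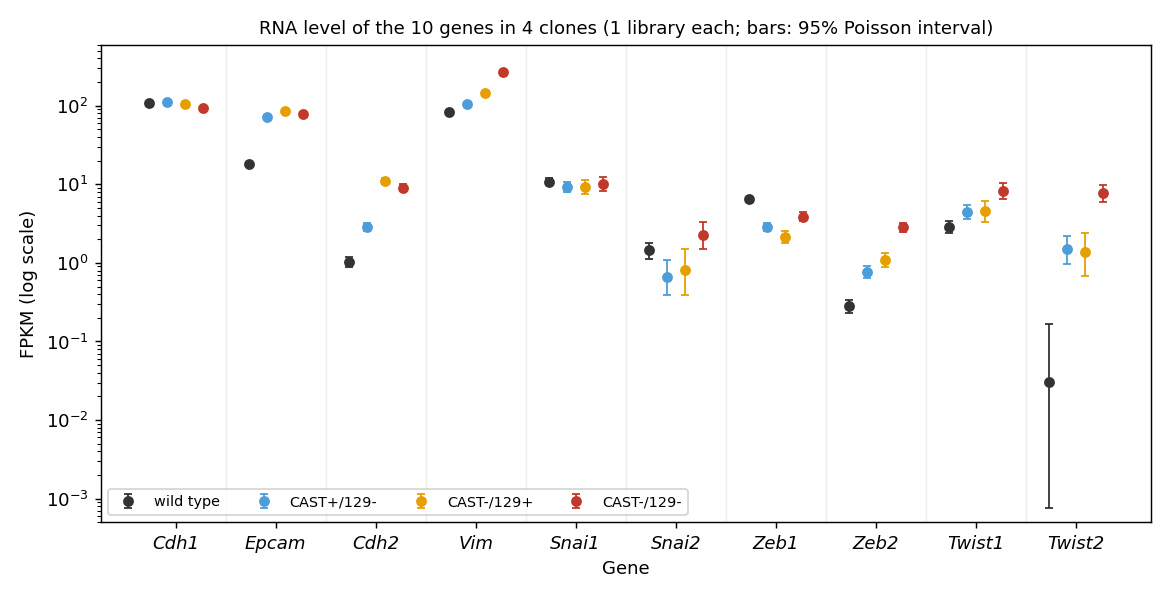
RNA level of the 10 genes in the WT, CAST+/129-, CAST-/129+ and CAST-/129- libraries, in FPKM on a log axis, with 1 point for each library and bars for exact 95% Poisson intervals of the counts. Cdh1 and Snai1 lie nearly level, the points of Epcam, Cdh2, Vim, Zeb2, Twist1 and Twist2 are higher in the deletion clones than in WT, and those of Zeb1 are lower.

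Of the 10 genes, 1 rose in CAST+/129- (Epcam), 2 in CAST-/129+ (Epcam and Cdh2) and 2 in CAST-/129- (Epcam and Vim). Among all 31498 genes, 0.321%, 0.473% and 0.813% rose in these clones, or 0.731%, 1.08% and 1.85% of the 13818 genes with a mean of at least 1 FPKM, among which all 10 are. None of the 10 fell in any clone, and 0.305%, 0.33% and 0.511% of all genes fell in the same order. Zeb1, Twist1, Snai2, Cdh2, Zeb2 and Twist2 were too low in WT to fall by this rule even with no RNA left. By the counting interval of the ratio alone, 6 of the 10 were above WT in each deletion clone. These were Epcam, Cdh2, Vim, Zeb2, Twist1 and Twist2. Zeb1 was below WT in each, Snai2 in CAST+/129- and Cdh1 in CAST-/129-. Of all genes, 19%, 17.7% and 18.3% were above WT by this measure and 21.6%, 20.3% and 20.9% below it. Of those with a mean of at least 1 FPKM, 34.8%, 30.9% and 31.1% were above and 39.9%, 40.2% and 41.7% below. Over coding bases 5, 5 and 6 of the 10 were above WT, since the interval of Twist1 then included 1 in both monoallelic clones. By the same measure 1, 1 and 3 were below WT, Zeb1 in each clone and also Cdh1 and Snai1 in CAST-/129-. The share over all genes was not taken for coding bases, so these counts have no background. The median log2 ratio of the 10 genes was 0.23 in CAST+/129-, 0.28 in CAST-/129+ and 0.75 in CAST-/129-. The median over all genes was 0 in each, a value held by the many genes without alignments. Over the 9521 genes with a mean of at least 5 FPKM, a level that not all of the 10 reach, it was 0.01, -0.05 and -0.08. In bulk RNA, more cells that express a gene and more RNA per cell cannot be told apart.

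**Figure D2:**
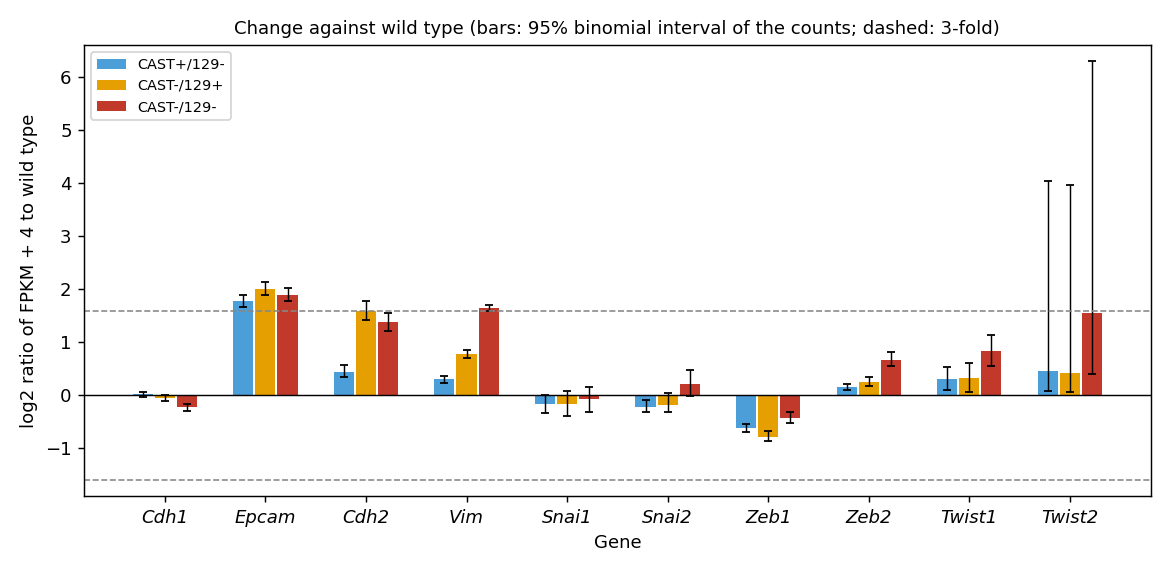
Log2 ratio of FPKM plus 4 to WT for each of the 10 genes in the 3 deletion clones, with bars of each clone side by side, error bars for exact 95% binomial intervals of the counts and dashed lines at 3-fold. Epcam passes the upper line in each clone, Cdh2 reaches it in CAST-/129+ and Vim in CAST-/129-, no gene reaches the lower line, and the interval of Twist2 is wide because WT had 1 alignment.

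Cdh1 (chr8:109127251-109194146 of mm9, plus strand) kept a high level in each clone. It was at 110.2 FPKM (107.5–112.9) in CAST+/129-, 105.2 (101.5–109.1) in CAST-/129+ and 92.3 (88.7–96.0) in CAST-/129-. The intervals of both monoallelic clones overlap that of WT, and the CAST-/129- value was 84.9% (81.3–88.7) of the WT value. The log2 ratios were 0.02, -0.05 and -0.23. With reads before collapsing, Cdh1 was at 0.931, 0.855 and 0.761 of the WT level. The genes of chromosome 8 had median log2 ratios of 0.07, -0.34 and -0.28 over 545 genes with a mean of at least 5 FPKM. Relative to its chromosome, Cdh1 was at -0.05, 0.30 and 0.05, so that its sign turned in each clone, and the part of this chromosome shift in the Cdh1 values was not tested. Its transcript was read along its length, with 96.3% to 96.5% of the exonic bases covered in each library.

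The nearest profile to that of Cdh1 over the 4 libraries was that of Uhrf1, a factor of DNA methylation maintenance, at 105.2, 106.3, 101.2 and 89.5 FPKM. Nearness was the Euclidean distance of log2 FPKM plus 4, centred on each gene's own mean, among 9496 genes with a mean of at least 5 FPKM, and the distance to Uhrf1 was 0.01. The next were Peo1 (0.01) and Braf (0.02). With 4 points a profile carries little information, and these genes are named as a description.

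Epcam (chr17:88035319-88050446 of mm9, plus strand), a homophilic adhesion molecule of epithelia, rose in every deletion clone. It went from 18.3 FPKM in WT to 72.2 (68.97–75.6) in CAST+/129-, 85.4 (80.3–90.7) in CAST-/129+ and 78.9 (73.9–84.1) in CAST-/129-. The ratios to the WT level were 3.95 (3.65–4.28), 4.67 (4.27–5.10) and 4.31 (3.93–4.73). The FPKM intervals of all deletion clones lie far above WT, and that of CAST-/129- overlaps both monoallelic clones. The ratio of CAST-/129- to CAST+/129- was 1.09 (1.01–1.18). The monoallelic clones, in which Sox2 remained at 81.8 and 72.8 FPKM, thus had Epcam levels near that of the biallelic clone. Epcam is also in the list of up-regulated genes that the study drew from these same libraries, so its rise here is not independent evidence. Per coding base the rise was 3.29-fold, 3.82-fold and 3.72-fold. Epcam was nearest in profile to Sbsn (distance 0.14), Fhl2 (0.16) and Eps8l2 (0.17). Sbsn, for example, was at 1.09, 11.6, 16.8 and 14.1 FPKM.

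Cdh2 (chr18:16747386-16967755 of mm9, minus strand), the N-cadherin gene, differed between the monoallelic clones. From 1.03 FPKM in WT, it was at 2.86 (2.54–3.21) in CAST+/129-, 11.2 (10.2–12.1) in CAST-/129+ and 9.05 (8.21–9.95) in CAST-/129-. The ratios to WT were 2.77 (2.31–3.33), 10.8 (9.20–12.8) and 8.78 (7.42–10.4). On the log2 scale of FPKM plus 4 these are 0.45, 1.59 and 1.38, and only the second passes 3-fold, by a narrow margin. All 4 intervals are apart. The CAST-/129+ library was 3.90-fold (3.38–4.52) the CAST+/129- library, although both clones had lost the SE on 1 allele. Counts of coding bases gave nearly the same ratios of 2.77, 10.99 and 9.13. Genes near to Cdh2 in profile included Pmp22 (distance 0.28), a myelin membrane protein, and H2-D1 (0.31), a class I histocompatibility antigen. Pmp22 was at 0.563, 2.93, 7.90 and 8.79 FPKM.

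Vim (chr2:13495554-13504453 of mm9, plus strand), which encodes the intermediate filament protein vimentin, was highest in the biallelic clone. After 83.8 FPKM in WT, it was at 103.9 (100.2–107.6) in CAST+/129-, 146.0 (139.8–152.5) in CAST-/129+ and 270.5 (261.8–279.3) in CAST-/129-. The libraries are apart from each other, at 1.24-fold (1.18–1.30), 1.74-fold (1.66–1.84) and 3.23-fold (3.09–3.37) the WT level. The log2 ratios were 0.30, 0.77 and 1.65, of which the last passes 3-fold. In CAST-/129- and CAST-/129+, Vim was above Cdh1. Vim was nearest in profile to Clip3 (distance 0.09), Cxx1a (0.10) and Fkbp10 (0.10), the last of which encodes a chaperone of collagen in the endoplasmic reticulum and was at 5.61, 7.07, 11.1 and 25.3 FPKM.

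Fibroblasts, on which the clones had been recovered, express Vim and the other mesenchymal genes. The 21 fibroblast markers summed to 75.7 FPKM in WT, 145.2 in CAST+/129-, 152.5 in CAST-/129+ and 691.5 in CAST-/129-. In CAST-/129-, 15 of them rose and 1 fell, with a median log2 ratio of 2.27, and 2 rose and 1 fell in each monoallelic clone. Lum and Fap had no alignment in WT, where 3 counts would allow up to 0.0603 FPKM for a transcript of 2000 bases, and each of the 21 had alignments in every deletion clone. Col1a1, a chain of fibrillar collagen, was at 3.47, 38.9, 38.8 and 174.0 FPKM, Col3a1 at 0.488, 7.22, 7.72 and 63.6, and Col1a2 at 1.14, 11.9, 13.6 and 53.3. Pdgfra, which is also made by primitive endoderm, went the other way and fell from 22.6 FPKM to 1.59, 2.54 and 4.47. The fibroblast sum thus moved with Vim, Zeb2, Twist1 and Twist2, and its part in their values was not tested.

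Neither Snai factor passed 3-fold, and Snai1 was at like levels in the 4 libraries. Snai1 (chr2:167363695-167368314 of mm9, plus strand), a zinc finger repressor of Cdh1, was at 9.19 FPKM (7.92–10.6) in CAST+/129-, 9.23 (7.44–11.3) in CAST-/129+ and 10.02 (8.11–12.3) in CAST-/129-, after 10.8 in WT. Its ratios to WT were 0.850 (0.712–1.01), 0.855 (0.674–1.07) and 0.928 (0.735–1.16), and each interval includes 1. Over coding bases alone the ratio in CAST-/129- was 0.688 (0.484–0.958), which does not include 1, while the intervals of the monoallelic clones still do. Snai2 (chr16:14705945-14709488 of mm9, plus strand), its paralog, rested on 73, 17, 10 and 27 alignments, or 1.44, 0.670, 0.810 and 2.27 FPKM. It was below WT in CAST+/129- at 46.4% (25.7–79.5), while the intervals of the other clones include the WT level. Over coding bases, with 14 alignments in CAST+/129-, this interval also included the WT level, at 0.650 (0.327–1.22). The CAST-/129- library was 3.39-fold (1.78–6.63) the CAST+/129- library.

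The Zeb genes went opposite ways. Zeb1 (chr18:5591858-5775465 of mm9, plus strand), a zinc finger and homeobox repressor, was at 6.54 FPKM in WT, 2.87 (2.58–3.19) in CAST+/129-, 2.15 (1.79–2.56) in CAST-/129+ and 3.87 (3.38–4.42) in CAST-/129-. Zeb1 was thus at 43.9% (39.0–49.3), 32.9% (27.2–39.4) and 59.2% (51.2–68.2) of the WT level, and no interval of a deletion clone reaches that of WT. The log2 ratios of FPKM plus 4 were -0.62, -0.78 and -0.42, which do not pass 3-fold. Zeb1 stayed below WT in each clone in all 10 alternatives of processing. Zeb2 (chr2:44839154-44972915 of mm9, minus strand), its paralog, was at 0.282 FPKM in WT, 0.766 (0.647–0.901) in CAST+/129-, 1.09 (0.891–1.33) in CAST-/129+ and 2.83 (2.49–3.20) in CAST-/129-. The ratios to WT were 2.71 (2.10–3.51), 3.87 (2.92–5.12) and 10.01 (7.96–12.7), and each deletion clone was apart from WT. The CAST-/129- library was also apart from both monoallelic ones. The FPKM intervals of the monoallelic clones overlap narrowly, while the ratio of CAST-/129+ to CAST+/129- was 1.43 (1.10–1.85). At these low levels the log2 ratios of FPKM plus 4 were 0.15, 0.25 and 0.67, none past 3-fold.

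The Twist genes encode basic helix-loop-helix factors of mesoderm and neural crest. Twist1 (chr12:34642536-34644682 of mm9, plus strand) was at 2.88 FPKM in WT, 4.46 (3.59–5.48) in CAST+/129-, 4.58 (3.34–6.13) in CAST-/129+ and 8.25 (6.52–10.3) in CAST-/129-. The ratios to WT were 1.55 (1.16–2.05), 1.59 (1.10–2.26) and 2.86 (2.12–3.85), and both monoallelic clones had nearly the same level. Twist2 (chr1:93698038-93744605 of mm9, plus strand) had 1 alignment in WT, 25 in CAST+/129-, 11 in CAST-/129+ and 60 in CAST-/129-. The CAST-/129- library, at 7.72 FPKM (5.89–9.94), was 255.4-fold WT with an interval from 44.1 to 10254, which the single WT alignment makes wide. Compared with the monoallelic clones it was 5.12-fold (3.16–8.53) CAST+/129- and 5.67-fold (2.95–11.96) CAST-/129+. On the log2 scale of FPKM plus 4, its ratios to WT were 0.45, 0.41 and 1.54, the last just short of 3-fold, whose log2 is 1.58.

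Ratios of a pair of genes within a library need no scaling to library size and were used to follow the balance between partners. They are not free of depth, since collapsing identical alignments lowers an abundant gene more than a rare one, most in the deepest library. With reads before collapsing, Vim was at 96.5 FPKM and Cdh1 at 107.5 in WT, and at 372.2 and 81.8 in CAST-/129-. The ratios below are of distinct alignments. N-cadherin RNA was 0.948% (0.822–1.09) of E-cadherin RNA per exonic base in WT, 2.60% (2.30–2.92) in CAST+/129-, 10.6% (9.66–11.6) in CAST-/129+ and 9.81% (8.83–10.9) in CAST-/129-. Cdh1 RNA was thus 9.43 times Cdh2 RNA in CAST-/129+ and 10.2 times in CAST-/129-. Per coding base, where the long and partly covered exons of Cdh2 outside its coding region do not count, it was 4.81 and 5.12 times. Vim was 77.0% of Cdh1 in WT, 94.3% in CAST+/129-, 138.8% in CAST-/129+ and 293% (278–308) in CAST-/129-. Epcam went from 16.8% of Cdh1 in WT to 65.6%, 81.1% and 85.5%, with overlapping intervals in the last pair. The CAST+/129- clone was thus nearer to the other deletion clones than to WT in the Epcam ratio, and nearer to WT in the Cdh2 and Vim ratios.

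Among the factors, Zeb2 went from 4.32% (3.52–5.25) of Zeb1 in WT to 26.7% (21.9–32.5) in CAST+/129-, 50.8% (38.7–66.4) in CAST-/129+ and 73.0% (60.7–87.8) in CAST-/129-. Zeb1 was the more abundant of the pair in each library per exonic base, but not per coding base, where Zeb2 was 120.4% (97.1–149.5) of Zeb1 in CAST-/129-. Twist2 went from 1.05% (0.0263–5.96) of Twist1 to 33.8% (20.8–53.1), 29.7% (13.9–58.4) and 93.5% (65.7–133). The interval of the CAST-/129- ratio includes equal levels. Snai2 was 13.4% of Snai1 in WT, 7.29% in CAST+/129-, 8.77% in CAST-/129+ and 22.7% in CAST-/129-, where the interval of 14.2 to 35.1 overlaps that of WT, 10.3 to 17.2.

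**Figure D3:**
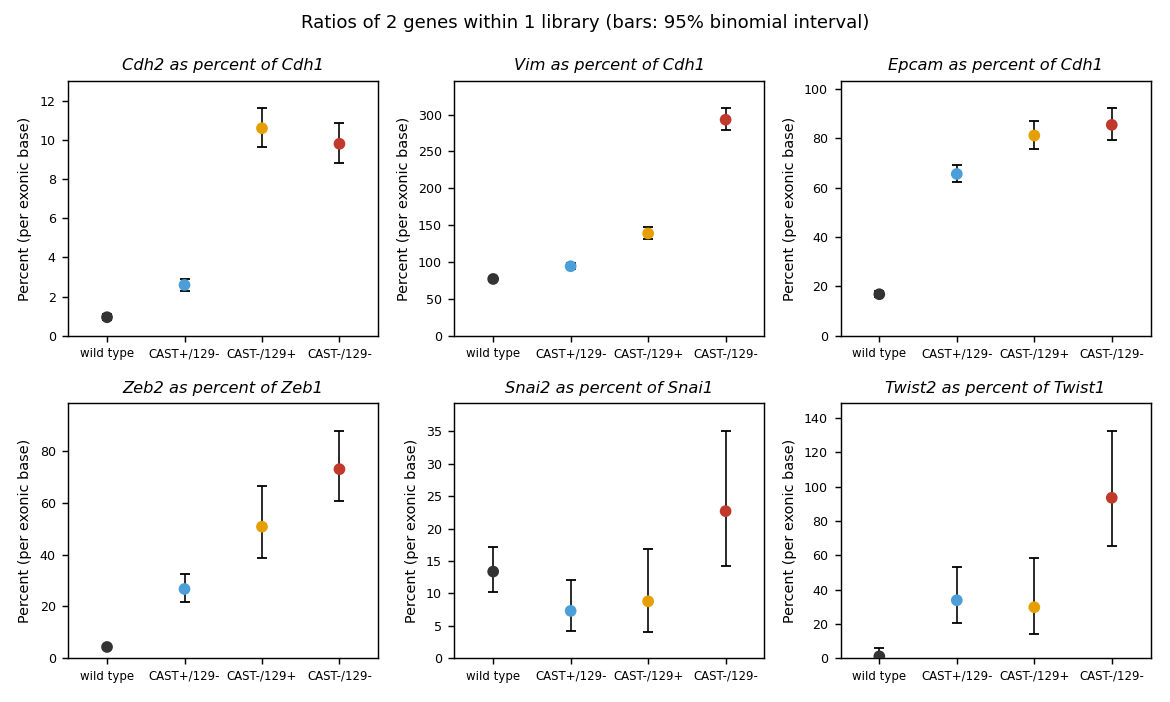
Level of a gene as a percent of that of a partner gene in the same library, per exonic base, for Cdh2, Vim and Epcam over Cdh1, Zeb2 over Zeb1, Snai2 over Snai1 and Twist2 over Twist1, with 1 point for each of the 4 libraries and bars for exact 95% binomial intervals. Cdh2 over Cdh1 is 2.60% in CAST+/129- and 10.6% in CAST-/129+, and Vim over Cdh1 is highest in CAST-/129- at 293%.

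The promoters of the 10 genes were then examined in unmodified ESCs. Enrichment was taken in the 2 kb on each side of the gene start, over the mean density of chromosomes 1 to 19 of the same library, and a start over 5 times the mean was called marked. H3K4me3 marked 6 of the 10 starts in F123 cells, those of Cdh1, Epcam, Cdh2, Vim, Zeb1 and Twist1, and 35.0% of all gene starts. H3K27ac marked 4 in F123 cells (Cdh1, Vim, Zeb1 and Zeb2), where 22.0% of all starts were marked, and 4 in J1 cells (Cdh1, Epcam, Vim and Zeb1), where 17.6% were. The F123 H3K27ac library held 1576875 distinct alignments, so that 1 alignment in the window amounts to 0.400-fold, and enrichments of different libraries are not compared as levels.

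Zeb1 carried the strongest H3K4me3 of the 10, at 21.0-fold (18.4–23.9), and its H3K27ac was 10.8-fold (7.12–15.7) in F123 cells and 6.02-fold (4.73–7.56) in J1 cells. Vim was at 12.6-fold (10.6–14.8) for H3K4me3, 25.2-fold (19.4–32.3) for H3K27ac in F123 and 10.4-fold (8.69–12.4) in J1. Cdh1 was at 9.72-fold (7.98–11.7), 12.4-fold (8.43–17.6) and 13.7-fold (11.7–15.9) in the same order. Zeb1, Vim and Cdh1 were the only genes of the 10 with all 3 enrichments over 5-fold. The J1 interval of Zeb1 includes the threshold of 5, however, so that this call is not firm. In Cdh1, H3K27ac also extended into the first 10 kb of the gene, where the 500 bases from 8000 to 8500 after the start held 35.2-fold H3K27ac in F123, 54.1-fold in J1 and H3K4me3 at 0.714-fold. This stretch lies within the body of Cdh1.

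Epcam had H3K4me3 at 8.83-fold (7.17–10.7), H3K27ac at 9.28-fold (7.66–11.1) in J1, and 6 alignments or 2.40-fold (0.882–5.23) in F123. The F123 interval includes the threshold of 5, so that the H3K27ac call of F123 at Epcam rests on few counts. Cdh2 was at 5.53-fold (4.24–7.09) for H3K4me3 with 1 H3K27ac alignment in F123 and 1.95-fold (1.25–2.91) in J1. Twist1 was likewise at 7.40-fold (5.89–9.17) for H3K4me3, with 1 H3K27ac alignment in F123 and 1.55-fold (0.931–2.42) in J1. Cdh2 and Twist1 thus had H3K4me3 over 5-fold in F123 cells and H3K27ac under it in both lines. The H3K4me3 interval of Cdh2 includes the threshold of 5, however, so that its call is not firm.

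The remaining starts were weaker. H3K4me3 was at 4.37-fold (3.23–5.78) at Snai1, 4.81-fold (3.62–6.28) at Snai2 and 3.12-fold (2.17–4.34) at Twist2. The intervals of Snai1 and Snai2 include the threshold of 5. In the 500 bases after the start, H3K4me3 was at 11.4-fold at Snai1 and 7.85-fold at Twist2, and in the 500 bases before the start of Snai2 it was at 12.8-fold. These narrow peaks lie below the threshold over 4 kb, and with a window of 1 kb on each side all 10 starts were marked, and 40% of all gene starts were. Zeb2 had H3K4me3 at 3.30-fold (2.32–4.55) at the 5′ end of the annotated gene and H3K27ac of 7.21-fold (4.27–11.4) in F123 cells and 1.87-fold (1.19–2.81) in J1 cells. Its start with the most H3K4me3, 7.76-fold, lies 6931 bases downstream and showed H3K27ac of only 1.201-fold (F123) and 1.38-fold (J1). In F123 cells the higher H3K4me3 and the higher H3K27ac of Zeb2 were thus at different starts, while H3K27ac was under 5-fold at both in J1 cells. The H3K27ac call of Zeb2 in F123 cells rests on 18 alignments, and its interval includes the threshold of 5.

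**Figure D4:**
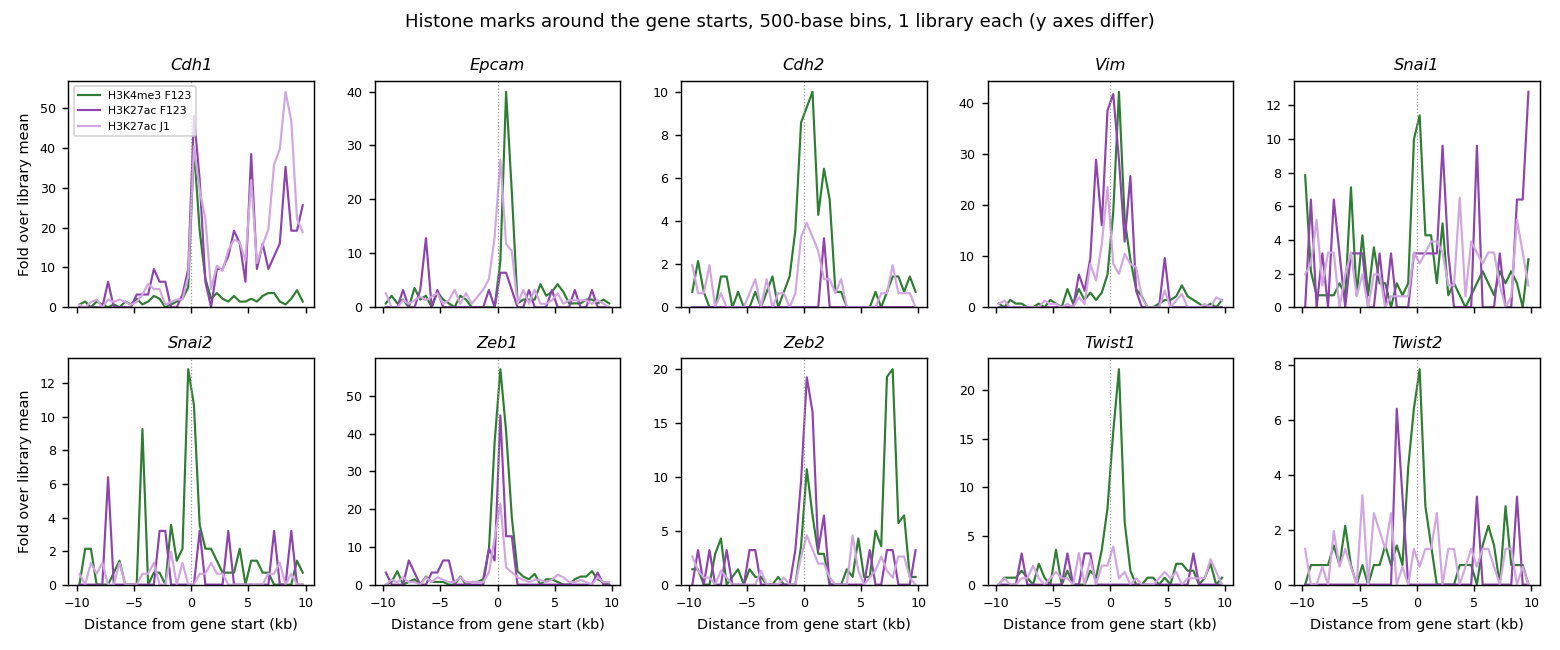
H3K4me3 in F123 cells and H3K27ac in F123 and J1 cells from 10 kb before to 10 kb after the start of each of the 10 genes, as fold over the library mean in 500-base bins, with distance in kb on the x axis and a separate y axis for each gene. H3K4me3 peaks within 1 kb of the start in each gene except Zeb2, whose highest bin lies 7.5 to 8 kb downstream, and H3K27ac of Cdh1 continues downstream of the start.

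Lists of further genes of the transition were examined to set the 10 in context. Among 31 genes of epithelial junctions, 2 rose in CAST+/129-, 4 in CAST-/129+ and 5 in CAST-/129-, and none fell. The median log2 ratios were 0.59, 0.59 and 0.61. The WT median of this list was 3.69 FPKM, so most of its genes were too low to fall by the rule. Cldn6, a claudin of tight junctions, was at 1.76 FPKM in WT and 27.9, 81.5 and 59.5 in the deletion clones, with log2 ratios of 2.47, 3.89 and 3.46. Prss8, a membrane-anchored protease, was at 3.69, 20.7, 31.98 and 23.0 FPKM, and rose in each clone. Dsp, the desmosomal plaque protein desmoplakin, was at 4.74, 11.5, 25.1 and 25.4 FPKM, and rose in CAST-/129+ and CAST-/129-. These epithelial genes rose in the same libraries in which Cdh1 did not fall.

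Of 13 regulators of the epithelial state, 1 rose in each clone, and none fell. This was Esrp1, a splicing factor of epithelia, at 0.395 FPKM in WT and 15.5, 22.4 and 17.0 in the deletion clones. The medians of the list were 0.33, 0.61 and 0.26, and 10, 12 and 11 of the 13 were above WT by any margin. Of all 31498 genes, 10550, 10521 and 9732 were above WT by any margin and 12116, 12123 and 12284 below. Some of the 13 rest on few counts, as Ehf had 2 alignments in WT and 2 in CAST+/129-. With a median of 0.832 FPKM in WT, most of the 13 were too low to fall by the rule. Klf5, the most abundant of them in WT, went down short of 3-fold, from 187.9 FPKM to 88.8, 72.8 and 66.6. The 11 cytoplasmic partners of cadherins had 0 that rose and 0 that fell in each clone, with medians of 0.05, 0.08 and 0.19. Among 12 classical cadherins, which include Cdh1 and Cdh2, Cdh2 rose in CAST-/129+ and Cdh11, a cadherin of mesenchyme, rose in CAST-/129-. Cdh11 was at 2.04 FPKM in WT, 5.36 in CAST+/129-, 6.91 in CAST-/129+ and 21.6 in CAST-/129-.

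Mesenchymal genes were the list with the largest median among those of the transition. Of 23, 8 rose and 1 fell in CAST+/129-, 6 rose and 1 fell in CAST-/129+, and 13 rose and none fell in CAST-/129-, with medians of 1.11, 0.85 and 2.08. S100a4, a calcium-binding protein of motile cells, was at 1.78, 32.6, 28.0 and 146.3 FPKM. Acta2, smooth muscle actin, was at 3.56, 73.5, 82.6 and 180.3 FPKM. Col1a1, Col1a2 and Col3a1 are in this list and in that of fibroblast markers, which makes 3 of 23 and 3 of 21, and the sum of the fibroblast markers, 75.7 FPKM in WT and 691.5 in CAST-/129-, rose alongside. The part of fibroblast RNA in these values was not tested.

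Regulators upstream of the transition were counted in 3 lists. Of 21 other transcription factors, 1 rose in CAST+/129-, 3 in CAST-/129+ and 1 in CAST-/129-, and none fell, with medians of -0.06, 0.19 and 0.20. The gene that rose in CAST-/129- was Id2, an inhibitor of basic helix-loop-helix factors, which was at 2.97 FPKM in WT and 62.4, 46.4 and 22.4 in the deletion clones. Of 20 genes of signals that induce the transition, 1 rose in CAST+/129-, 0 in CAST-/129+ and 1 in CAST-/129-, and none fell, with medians of 0.07, 0.11 and 0.41. Ctgf, a matricellular target of TGF-beta and YAP, was the gene that rose in CAST-/129-, and it was at 8.29, 81.2, 23.5 and 37.8 FPKM. Of 18 corepressors and regulators of the Snai and Zeb factors, 0 rose and 0 fell in each clone, and the medians were 0.03, 0.09 and -0.08. The other transcription factors had a WT median of 4.11 FPKM and the signals one of 1.83. Most genes of these lists were thus too low to fall by the rule, unlike the corepressors with a WT median of 31.9.

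**Figure D5:**
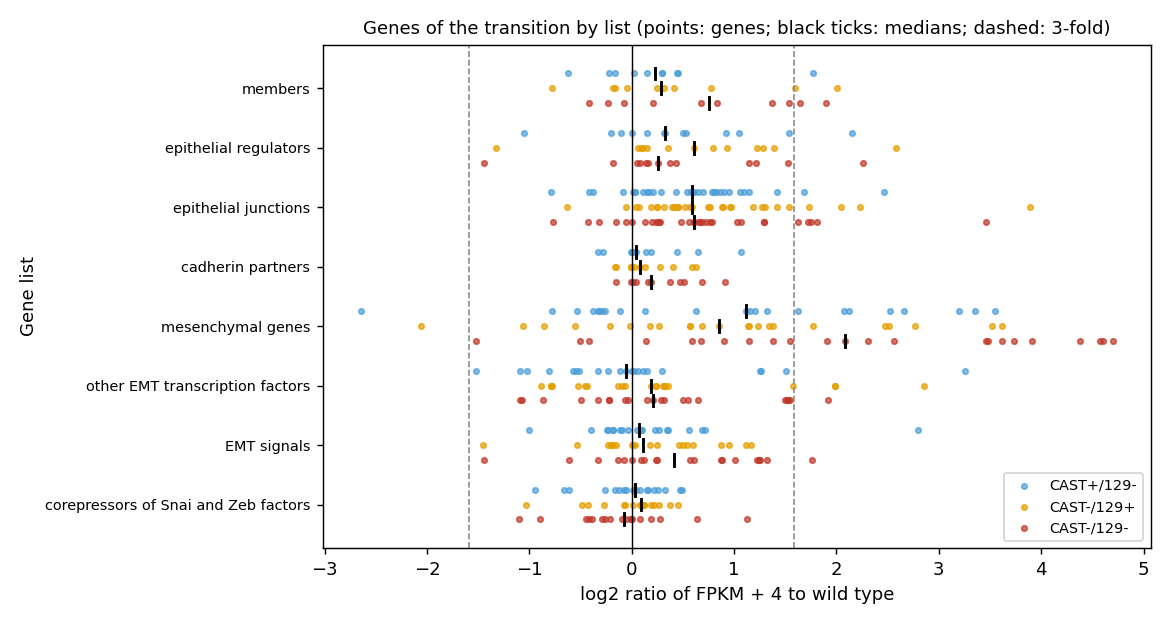
Log2 ratio of FPKM plus 4 to WT for the genes of 8 lists in the 3 deletion clones, with 1 point for each gene, a black tick at the median of each list and dashed lines at 3-fold. Mesenchymal genes reach log2 ratios of up to 4.70 and have a median of 2.08 in CAST-/129-, whereas the medians of the cadherin partners and corepressors lie near 0.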

How the data were processed

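RNA-seq of 4 F123 clones and ChIP-seq of F123 and J1 cells were analysed, 7 libraries with 1 for each condition, grouped by the sample labels. Per the paper's methods and the submitters' processing notes, the authors mapped reads to mm9 with Novoalign and USeq (RNA-seq) or Bowtie (ChIP-seq), and the versions are not given in the sources used here. The deposited files list aligned positions, with identical alignments collapsed to 1 line and a whole-number count of the reads behind it. They hold no read sequence, and no input library was used.

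From these files, alignments were assigned by midpoint to exonic bases of a single gene on the sense strand of GENCODE M1 (build NCBIM37, the same as mm9). Lines carry the strand opposite to the transcript. Genes with at least 200 such bases were kept. Alignments on genes, 24891864 in WT, 12486398 in CAST+/129-, 6078945 in CAST-/129+ and 5847451 in CAST-/129-, were the library sizes. Reads per distinct alignment were between 1.84 and 2.58, so that collapsing lowers abundant genes most in the deepest library, and in the ChIP-seq libraries they were between 1.27 and 10.5. Antisense alignments were 2.86% to 3.36%, and introns of the 10 genes held 0 to 5 alignments. A pseudo-value of 4 was added to FPKM before log2 ratios were taken, and the study's 3-fold rule was applied. ChIP-seq alignments were placed by their 5′ end. A single count was given an exact 95% Poisson interval, a ratio an exact binomial interval, and a count of 0 a limit of 3 counts. With 1 library per condition no test of a difference between genotypes was possible, and no p-value is given.

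The 10 genes and all lists were chosen with earlier results of these data known. The genes named from the lists are, among those past 3-fold in CAST-/129-, the 3 that rose most and the 3 that fell most, besides markers at 0, Sox2, Krt8, Krt18 and the 3 genes nearest in profile to Cdh1, Epcam, Cdh2 and Vim. For Cdh2, 1 of these is not reported here. Ajuba, Tfcp2l1, Tfap2c, Sox1 and Map2 of the lists were not measured under these names and were left out. The 3-fold rule and the cover of the ratio intervals were checked on simulated counts. Only abundant genes were changed in the check of the rule, and by more than 3-fold. How the rule behaves at the low levels of most of the 10 genes was thus not checked. Counting used Python 3.11.15 with pyarrow 21.0.0 and numpy 2.4.6, intervals used scipy 1.17.1, and tables and plots used pandas 2.3.3 and matplotlib 3.10.9.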

Additional observations from a re-analysis of the deposited data

How the results depend on the processing

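No paired analysis was possible because each condition has 1 library. The number of the 10 genes that fell was 0 in each clone under every alternative run. Epcam, Cdh2, Vim, Zeb2, Twist1 and Twist2 kept ratios above WT, and Zeb1 below WT, in each clone under all 10 alternatives. Calls past 3-fold of genes near the threshold moved. In CAST-/129+ the number that rose was 1 (Epcam) with all alignments as library size, with reads before collapsing, with both strands and with a pseudo-value of 10. In CAST-/129- it was 1 (Epcam) with reads thinned to the smallest library and with a pseudo-value of 10, 4 with a pseudo-value of 1 and at a 2-fold threshold (Epcam, Cdh2, Vim and Twist2), and 5 with coding bases only, which add Zeb2. In CAST+/129- it was 0 with a pseudo-value of 10. At 5-fold it was 0 in each clone. Over all genes, the number that rose in CAST-/129- was 256, and it was 699 with a pseudo-value of 1, 120 with 10, 424 with coding bases only, 629 at 2-fold and 103 at 5-fold. Of 28 counts over the other lists, 11 moved by over 1.5 times with a pseudo-value of 1 and 3 with reads before collapsing. The number of starts marked by H3K4me3 was 10 with a window of 1 kb, where 40% of all starts were, and 2 (Vim and Zeb1) at 10 times the mean, where 19.3% of all were. That marked by H3K27ac in J1 was 2 (Cdh1 and Vim) at 10 times the mean, where 7.21% of all were. The sign of Snai1 turned with reads before collapsing and with thinned reads in CAST-/129+ and CAST-/129-. That of Cdh1 turned with these settings in CAST+/129-. In CAST-/129+ it turned with library sizes from the median of ratios and with coding bases only. Subtracting the chromosome median, chosen after seeing the data, turned the sign of Cdh1 in each clone and that of Snai1 in CAST-/129-. Depth limits Snai2 and Twist2 most, with 10 and 11 alignments in CAST-/129+. The intervals cover counting error only, and differences between clones have no replicate check.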

Other observations

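Marker lists of cell types other than fibroblasts were measured beside the 10 genes. Of 10 trophectoderm markers, 4 rose in CAST+/129-, 5 in CAST-/129+ and 4 in CAST-/129-, and none fell. Among them was Krt8, a keratin of simple epithelia, at 14.6 FPKM in WT, 138.7 in CAST+/129-, 263.3 in CAST-/129+ and 278.1 in CAST-/129-, and its partner Krt18 had log2 ratios of 4.56, 5.32 and 5.34. Hand1, a factor of trophoblast and mesoderm, was at 0.523, 43.8, 43.7 and 19.7 FPKM. Of 11 markers of mesoderm and the primitive streak, 0 rose in CAST+/129-, 4 in CAST-/129+ and 5 in CAST-/129-, and none fell. None of these 11 could fall by the rule, as the highest was at 3.89 FPKM in WT. Of the trophectoderm markers, only Krt8 and Tead4 could. Tead4, the most abundant of these in WT, went down short of 3-fold, from 28.2 FPKM to 25.6, 16.6 and 10.4. T (brachyury) was at 0.417, 3.15, 10.2 and 36.2 FPKM, Fgf8 at 0.119, 1.01, 19.5 and 21.4, and Mixl1 at 0.228, 0.209, 7.10 and 13.0. T, Fgf8 and Mixl1 were thus lower in CAST+/129- than in the other deletion clones, as Cdh2 was. Not all of the list shared this, since Eomes was at 3.89, 18.3, 28.2 and 13.0 FPKM.

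Of 11 primitive endoderm markers, none rose and 3 fell in each clone. Gata6, which is needed to form this tissue, was at 42.9 FPKM in WT and 2.93, 6.75 and 4.50 in the deletion clones, and Lama1, a laminin of its basement membrane, was at 80.2, 24.9, 20.2 and 12.02. All 11 were below WT by any margin in CAST+/129-, as were 12116 of all 31498 genes. In CAST-/129+ 3 of the 11 were above WT and in CAST-/129- 4, as were 10521 and 9732 of all genes. Foxa2, for example, was at 1.36, 0.642, 9.02 and 11.4 FPKM. Of 8 neural markers, 2 rose in CAST+/129-, 1 in CAST-/129+ and 1 in CAST-/129-. Nes, which encodes the filament protein nestin, was at 1.80, 14.3, 10.5 and 19.9 FPKM. Of the ESC markers, 1 of 9 fell in each monoallelic clone. Klf4 was at 120.3, 19.2, 13.8 and 8.27 FPKM, and Esrrb at 89.8, 51.2, 31.3 and 21.3. Not every marker was lowered, since Dppa5a was at 460.5, 528.5, 545.3 and 478.2 FPKM. Pou5f1 was at 188.0, 131.4, 206.2 and 162.9 FPKM.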
